A study of Mus musculus with 6 samples.

Results

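Gata4, Gata6, Sox7, Sox17, Foxa2, Hnf4a, Pdgfra and Dab2 are 8 regulators of the primitive endoderm: 6 transcription factors, a receptor and an adaptor protein. They were taken by name, by matching Ensembl gene identifiers to symbols, and all 8 were found among the 22933 genes of the deposited table. Total RNA had been sequenced from mouse embryonic stem cells in which both Ezh2 alleles are floxed (Ezh2 fl/fl), grown on gelatin in medium with serum and leukaemia inhibitory factor. Ezh2 carries the methyltransferase activity of PRC2, the Polycomb complex that marks histone H3 at lysine 27. One group was untreated (3 libraries, labelled Ezh2 wild type) and the other received 800 nM 4-hydroxytamoxifen for 96 h (3 libraries, labelled Ezh2 KO), with RNA taken at 4 days. Both groups come from these floxed cells, and the labels' treatment protocol says that tamoxifen turns Ezh2 fl/fl into Ezh2 delta/delta cells. The driver of Cre, a vehicle for the untreated cells and the number of clones or separate cultures are not given in the sources used here, so the drug and the deletion cannot be told apart, and p-values measure only the spread between these libraries.

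The primitive endoderm is the epithelium that separates from the epiblast inside the blastocyst and gives rise to the visceral and parietal endoderm of the yolk sacs. FGF signalling favours Gata6 over Nanog in its precursors, after which Pdgfra, Sox17, Gata4 and Sox7 come on in sequence, and Dab2 is needed for the epithelium to form. Foxa2 and Hnf4a act later, in the visceral endoderm. In cultured embryonic stem cells these genes are low, and forced Gata6 or Gata4 turns the cells into extraembryonic endoderm.

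Recovered reads per library, obtained from the deposited values, ran from 2334438 to 5689666. The deposited values themselves are normalized read counts, compared here as log2(value + 1) with limma for 17427 genes whose values averaged 10 or more. Ezh2 stood at 4165, 3620 and 3483 without tamoxifen and at 2258, 2559 and 2609 with it. The tamoxifen mean was 65.9% of the untreated one, without overlap, and the limma adjusted p was 0.195. Which exons the deletion removes is not given in the sources used here, so reads over the whole gene are only a partial check. The 8 pluripotent stem cell markers summed to 3818 to 4192 scaled reads in untreated and 3877 to 4229 in tamoxifen libraries. Scaled reads are a gene's recovered reads divided by 1 size factor for the library. On this scale Ezh2 stood at 577.5, 372.5 and 379.0 without tamoxifen and at 313.0, 359.6 and 317.3 with it. Tamoxifen replicate 2 was thus only a little below untreated replicates 2 and 3. All 8 markers were detected in every library, but they did not all move alike. None was called with limma, 2 were higher and 1 was lower at an unadjusted p under 0.05. Over all genes tested these shares were 5.34% and 3.99%. Tfcp2l1 differed by 0.70 and Nanog by 0.57 in log2 value, Dppa4 by -0.54 and Zfp42 by -0.26. In bulk RNA, fewer or more cells of a type and less or more RNA per cell cannot be told apart.

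RefSeq promoter sequences of assembly GRCm38.p6 covered 4 of the 8 genes. The 250 bases before the outermost RefSeq start of each are printed because GATA, SOX and FOX factors are themselves among the regulators. Capitals mark a GATA match, AGATAA or TGATAA on either strand, which 16.6% of 32817 promoter windows of this length hold. The windows are Foxa2 chr2:148046970-148047219 (minus strand), Hnf4a chr2:163506607-163506856 (plus strand), Pdgfra chr5:75152001-75152250 (plus strand) and Dab2 chr15:6299539-6299788 (plus strand).
Foxa2: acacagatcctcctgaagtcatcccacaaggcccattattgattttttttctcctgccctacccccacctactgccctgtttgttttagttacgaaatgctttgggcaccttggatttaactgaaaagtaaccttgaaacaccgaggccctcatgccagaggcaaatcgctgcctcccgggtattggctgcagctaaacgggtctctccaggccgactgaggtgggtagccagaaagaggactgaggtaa
Hnf4a: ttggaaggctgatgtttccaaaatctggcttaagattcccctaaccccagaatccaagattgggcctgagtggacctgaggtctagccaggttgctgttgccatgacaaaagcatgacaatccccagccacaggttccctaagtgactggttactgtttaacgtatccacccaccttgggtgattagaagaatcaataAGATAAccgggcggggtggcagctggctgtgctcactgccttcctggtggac
Pdgfra: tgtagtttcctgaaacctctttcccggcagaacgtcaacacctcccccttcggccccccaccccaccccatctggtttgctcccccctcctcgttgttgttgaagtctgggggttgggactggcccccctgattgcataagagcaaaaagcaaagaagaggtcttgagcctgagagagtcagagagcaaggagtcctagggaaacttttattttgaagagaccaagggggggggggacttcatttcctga
Dab2: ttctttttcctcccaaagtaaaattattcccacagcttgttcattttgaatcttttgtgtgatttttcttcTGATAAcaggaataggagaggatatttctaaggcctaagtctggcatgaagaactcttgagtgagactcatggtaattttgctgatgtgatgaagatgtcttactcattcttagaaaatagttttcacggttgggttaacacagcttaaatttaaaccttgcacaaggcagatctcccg
The Hnf4a window held its match 52 bases before the RefSeq start and the Dab2 window 179 bases before its own. The Hnf4a window, which ends at 163506856, runs past the GENCODE start of the gene at 163506808. Neither the Pdgfra window nor the Foxa2 window shown held a GATA match, although the window of another Foxa2 start did. The Foxa2 window shown held a SOX match (AACAAT or AACAAA, in 24.9% of windows) 171 bases before the start. It also held a FOX match (TGTTTAC or TGTTTGT, in 8.73% of windows) 173 bases before the start. The other windows shown held neither. GC content was lowest in the Dab2 window at 36.8% and reached 54.4% in the Pdgfra window, against a median of 52.4% over all windows. A match describes these letters and is not a measured binding site.

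No regulator was called at an adjusted p under 0.05 with limma (0 of 8, where 0.195% of all genes tested were called, 34 genes). Even so, 6 of the 8 genes (Gata4, Gata6, Sox7, Sox17, Pdgfra and Dab2) had all 3 tamoxifen libraries above all 3 untreated ones. Over all genes tested 7.92% were separated in that direction. At an unadjusted limma p under 0.05, 5 of 8 were higher and none lower, against 5.34% of all genes higher and 3.99% lower. A log2 change of 1 or more was found for 5 of 8, and for 11.4% of all genes. The median log2 change of the 8 was 1.28, and that of all genes tested was -0.0037. The genes fell into 3 kinds of record: Gata4, Gata6, Pdgfra and Dab2 with more than 2-fold differences between group means, Sox7, Sox17 and Foxa2 on few reads, and Hnf4a, also on few reads, with overlapping values and the lowest change.

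**Figure D1:**
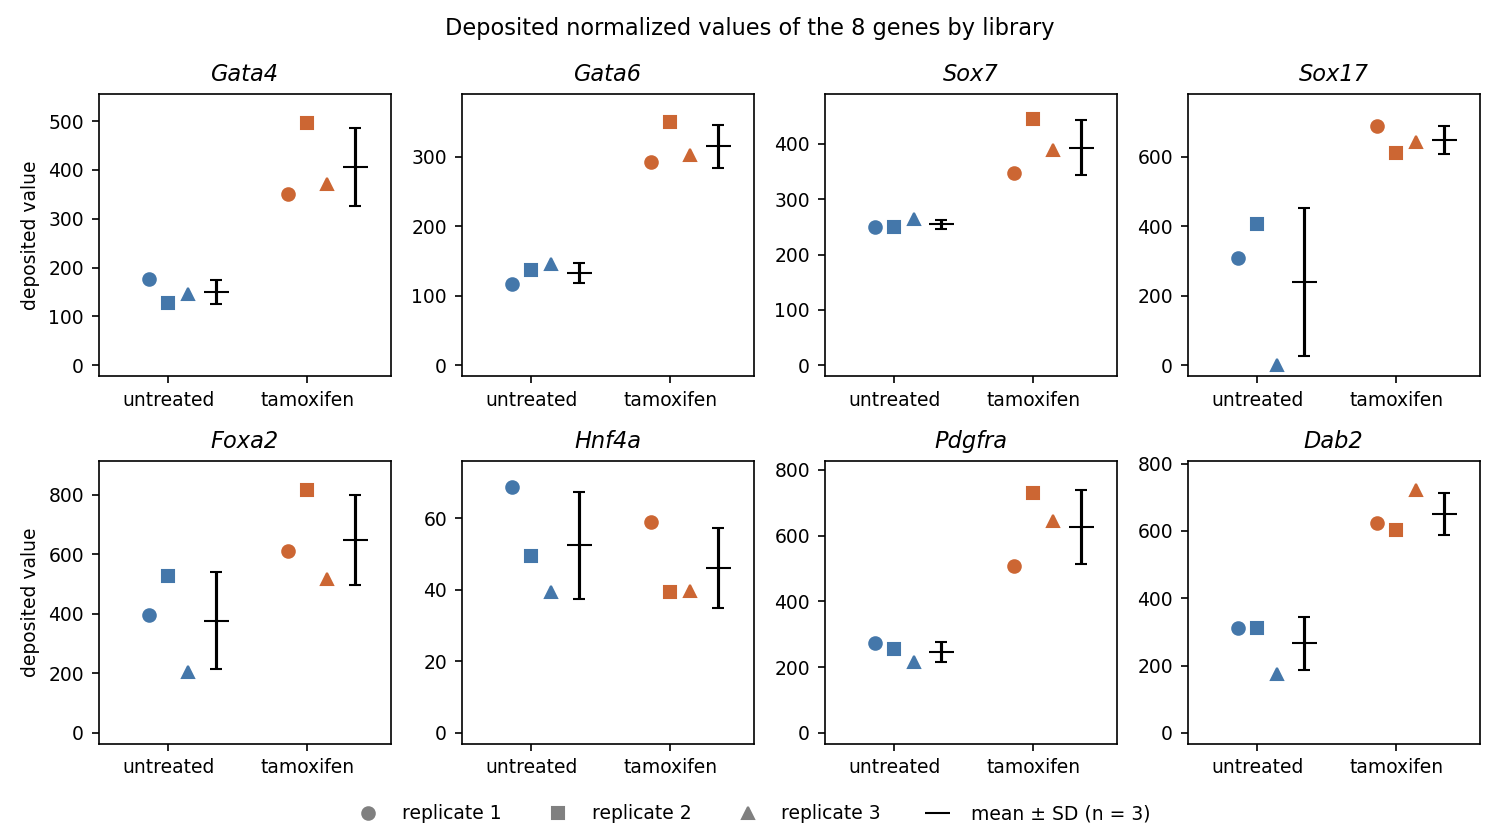
Deposited normalized values (y axis, linear from 0, own scale per gene) of the 8 regulators in the untreated (blue) and tamoxifen (orange) libraries, with shapes for replicate numbers and black bars for mean ± SD (n = 3). The groups do not overlap for Gata4, Gata6, Sox7, Sox17, Pdgfra and Dab2, and they overlap for Foxa2 and Hnf4a.

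The GATA factors are zinc finger proteins that head the primitive endoderm programme. Gata4 (chromosome 14, 63198922 to 63271692, minus strand, GRCm38) is also a cardiac factor. Without tamoxifen its deposited values were 175.8, 127.2 and 146.2, and with tamoxifen 350.8, 496.7 and 370.5. Every tamoxifen library was above every untreated one, and tamoxifen replicate 2 was the highest. The mean went from 149.7 ± 24.5 to 406.0 ± 79.1 (SD, n = 3), a log2 change of 1.43 ± 0.26 (SE; 95% interval 0.81 to 2.05), with a limma adjusted p of 0.165. Gata4 rested on 47, 41 and 20 untreated reads and 72, 79 and 135 tamoxifen reads, and its scaled reads averaged 36.1 and 87.5.

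Gata6 (chromosome 18, 11052064 to 11085635, plus strand) is the earliest of these factors in the embryo. It stood at 117.3, 136.8 and 145.9 in untreated cells, compared with 292.3, 350.6 and 302.3 after tamoxifen. The groups were apart by more than the range within either. The log2 change was 1.24 ± 0.24 (SE; 95% interval 0.66 to 1.81), with a limma adjusted p of 0.195. Its 27, 35 and 14 untreated reads and 47, 48 and 87 tamoxifen reads gave a ratio of mean scaled reads of 2.21. The values of the GATA pair ran together over the 6 libraries (Pearson r 0.95 on log2 values, a description that includes the difference between groups).

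Sox7 and Sox17 are SOX-F factors, which act in extraembryonic endoderm and in endothelium. Sox7 (chromosome 14, 63943673 to 63950732, plus strand) lies on the same chromosome as Gata4. It was at 249.8, 250.4 and 264.6 without the drug and at 347.4, 444.9 and 388.4 with it. The untreated values were close together and all below the tamoxifen values. The log2 change was 0.62 ± 0.19 (SE), with a limma adjusted p of 0.434. Sox7 had only 6, 7 and 3 untreated reads and 9, 12 and 21 tamoxifen reads, and a read was worth 18.5 to 88.2 units of value. On log2 scaled reads its change and its SE were both larger than on values, 1.10 ± 0.39 (SE; limma adjusted p 0.508).

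Sox17 (chromosome 1, 4490931 to 4497354, minus strand) had values of 308.5, 407.7 and 0.885 in untreated cells, set against 689.4, 610.7 and 641.9 after tamoxifen. Untreated replicate 3 stood far below every other library, on a single read. Reads numbered 8, 20 and 1 without the drug and 27, 18 and 48 with it. The log2 change of the values was 3.38 ± 2.03 (SE; 95% interval -1.53 to 8.30; limma adjusted p 0.665), and without untreated replicate 3 it was 0.86. In scaled reads, 6.66, 13.4 and 2.09 stood against 30.5, 22.5 and 29.3, again without overlap, and limma on log2 scaled reads gave 2.01 (95% interval 0.85 to 3.18; adjusted p 0.316). Sox17 shares 804 exonic bases with the transcript Gm37587 on the other strand, and the strand setting of the counts is not stated.

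Foxa2 (chromosome 2, 148042877 to 148046969, minus strand), a forkhead factor of visceral endoderm, definitive endoderm and node, had the fewest reads of the 8 genes. Reads numbered 3, 6 and 1 without the drug, and 5, 6 and 6 with it. One read was worth 86.3 to 204.4 units of value here. The values of 396.5, 527.4 and 204.4 against 611.6, 814.6 and 517.8 overlapped, since untreated replicate 2 exceeded tamoxifen replicate 3. The log2 change was 0.86 ± 0.38 (SE; 95% interval -0.07 to 1.79; limma adjusted p 0.546), and without untreated replicate 3 it was 0.48.

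Hnf4a (chromosome 2, 163506808 to 163572910, plus strand), the nuclear receptor that drives lipoprotein genes in visceral endoderm and liver, averaged 14.5 reads, fewer than Sox17 at 20.3, and had the lowest change of the 8. Untreated cells gave values of 68.7, 49.4 and 39.3, and tamoxifen-treated cells 59.0, 39.4 and 39.7. The groups overlapped throughout, and replicate 1 was the highest in both. The log2 change was -0.17 ± 0.51 (SE; 95% interval -1.40 to 1.06; limma adjusted p 0.932), and the interval holds changes of either sign. Hnf4a had 17, 18 and 7 untreated reads and 15, 8 and 22 tamoxifen reads, and the ratio of its mean scaled reads was 0.988.

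Pdgfra (chromosome 5, 75152292 to 75198215, plus strand) encodes the receptor for PDGF-A that marks primitive endoderm cells and supports their survival, and it is also found in fibroblasts and mesoderm. Untreated cells gave values of 273.0, 253.6 and 213.9, and tamoxifen-treated cells 506.3, 729.9 and 642.9. The lowest tamoxifen value was above the highest untreated one by more than the range of the untreated libraries. Pdgfra had the lowest p of the 8 genes, rank 101 of the 17427, with a log2 change of 1.33 ± 0.21 (SE; 95% interval 0.81 to 1.85) and a limma adjusted p of 0.117. It had 56, 66 and 18 untreated reads and 75, 81 and 163 tamoxifen reads. Over the 6 libraries its log2 values ran closest with those of Gata4 (Pearson r 0.975) and Gata6 (0.95).

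Dab2 (chromosome 15, 6299788 to 6440712, plus strand) is the clathrin adaptor that carries lipoprotein receptors such as megalin into the cell and keeps the endoderm epithelium polarized. Without the drug it was at 312.0, 311.9 and 175.0, and with the drug at 623.1, 603.7 and 720.7. Untreated replicate 3 was the lowest, and the other untreated libraries were nearly equal. The log2 change was 1.33 ± 0.28 (SE; 95% interval 0.66 to 1.99), with a limma adjusted p of 0.222. Dab2 had the most reads of the 8 genes, 76, 62 and 15 without the drug and 93, 97 and 203 with it. On the other strand it shares 211 exonic bases with the pseudogene Gm18888, as Gata6 shares 93 with 1010001N08Rik and Pdgfra 456 with Gm42802, with the same limit on strand as for Sox17.

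**Figure D2:**
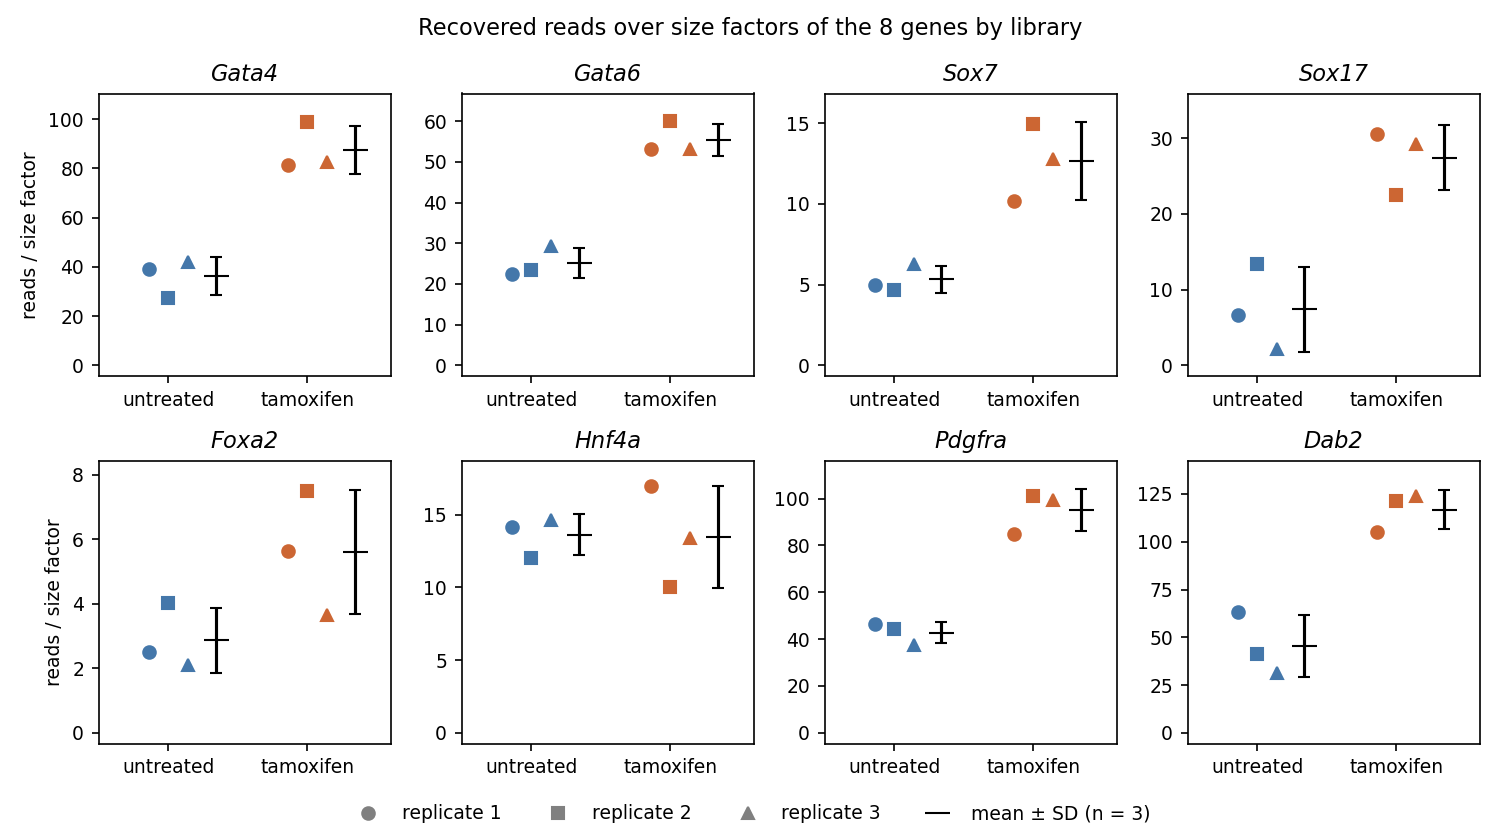
Recovered reads divided by the size factor of the library (y axis, linear from 0, own scale per gene) for the 8 regulators, with colours, shapes and bars as in the plot of deposited values. The same 6 genes are without overlap, and the Sox17 read of untreated replicate 3 sits at 2.09 scaled reads rather than near 0.

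On scaled reads, the same 6 genes had every tamoxifen library above every untreated one, against 7.12% of all genes. With limma on log2 scaled reads 0 of 8 were called (0.023% of all genes), and 6 of 8 were higher at an unadjusted p under 0.05 (5.03% of all genes). Scaled reads were adopted after the values had been seen, since in reads over the library total (RPM) the median gene was 0.25 higher with tamoxifen on the log2 scale. In RPM Foxa2 separated as well (7 of 8), where 8.19% of all genes separated higher and 1.25% lower. For each of the 6 genes the two-sided exact permutation test over 3 against 3 libraries gave p = 0.1, the smallest this design allows, on values and on scaled reads. It gave 0.2 for Foxa2 on both scales, and 0.7 on values and 1.0 on scaled reads for Hnf4a. The scaled reads of all 8 genes together came to 199.7, 170.5 and 165.4 without tamoxifen and 387.5, 435.8 and 418.0 with it.

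**Figure D3:**
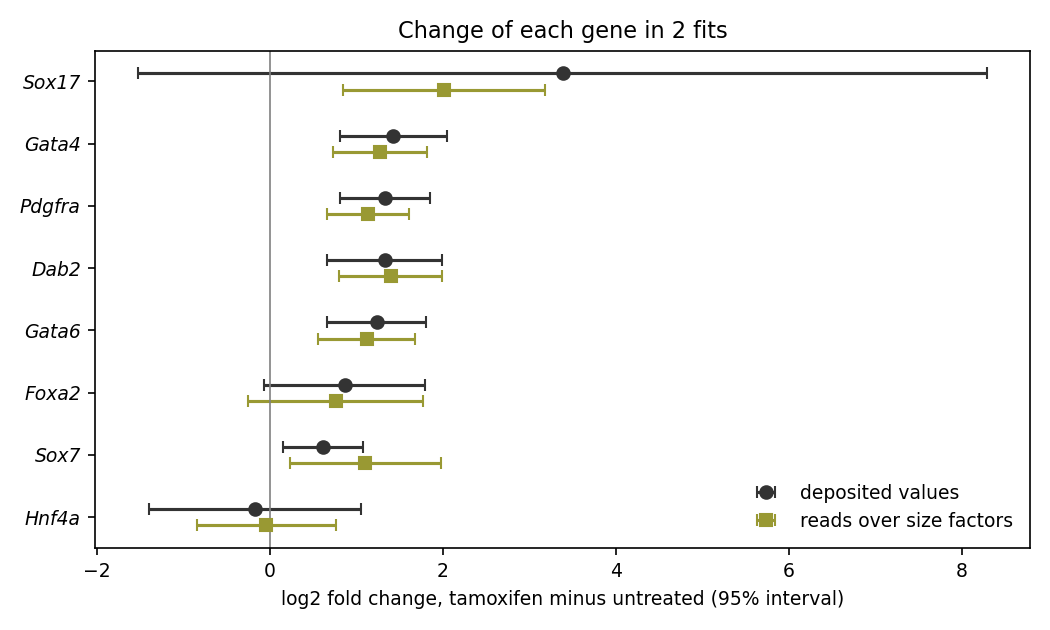
Log2 change (x axis, tamoxifen minus untreated) of each regulator with its 95% interval from limma, on deposited values (dark circles) and on reads over size factors (olive squares). The intervals of Gata4, Gata6, Pdgfra, Dab2 and Sox7 lie above 0 in both fits, that of Sox17 only on reads, and those of Foxa2 and Hnf4a include 0 in both.

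The untreated libraries did not order the genes alike. In untreated replicate 3, Gata6 at 29.3, Gata4 at 41.9, Hnf4a at 14.7 and Sox7 at 6.28 scaled reads were the highest of the untreated group. In the same library Dab2 at 31.4, Pdgfra at 37.7, Sox17 at 2.09 and Foxa2 at 2.09 scaled reads were the lowest of that group. This library had the second lowest number of recovered reads, 2678202, but the smallest size factor, 0.478, and the fewest genes with at least 10 reads, 10126. Whether depth has a part in this was not tested. With untreated replicate 3 left out of the limma fit on values, 0 of 8 genes were called and 6 of 8 were higher at an unadjusted p under 0.05. In that fit 32 of all 17427 genes were called higher and 34 lower. Over both directions 1466 had an unadjusted p under 0.05. The median log2 change of the 8 was 0.96.

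Set per kilobase of exon, levels were led by Gata4 in both groups. Untreated cells had 9.26 ± 1.97 scaled reads per kb of Gata4 (SD, n = 3), then 6.18 ± 2.22 of Dab2, 4.27 ± 0.459 of Pdgfra and 3.85 ± 0.571 of Gata6. Below these came Hnf4a at 2.82 ± 0.288, Sox7 at 1.61 ± 0.257, Sox17 at 1.55 ± 1.19 and Foxa2 at 1.21 ± 0.427 scaled reads per kb. Neighbours in the untreated order overlapped except Gata6 with Hnf4a and Hnf4a with Sox7. In the tamoxifen group the level of Gata4 was 22.4 ± 2.49 scaled reads per kb, that of Dab2 15.9 ± 1.38, that of Pdgfra 9.49 ± 0.900 and that of Gata6 8.51 ± 0.607. Sox17 at 5.75 ± 0.907 and Sox7 at 3.84 ± 0.731 scaled reads per kb stood above Hnf4a at 2.79 ± 0.721, with Foxa2 last at 2.36 ± 0.808. Only Pdgfra with Gata6, Sox7 with Hnf4a and Hnf4a with Foxa2 overlapped among tamoxifen neighbours. Hnf4a thus went from the fifth place to the seventh while the ranges of its own level overlapped between the groups.

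Hnf4a was also compared directly with each other regulator. The excess is the change of that gene minus the change of Hnf4a in log2(scaled reads + 1). Hnf4a had the lowest change of the regulators, so a positive excess for every other gene followed from this choice of reference. The 7 comparisons also share the same Hnf4a libraries and are not independent of each other. The excess was 1.31 for Gata4, 1.16 for Gata6, 1.14 for Sox7, 2.05 for Sox17, 1.17 for Pdgfra and 1.44 for Dab2. In each of these 6 the libraries of the groups did not overlap, and the exact permutation p was 0.1, or 0.117 after Benjamini-Hochberg adjustment over the 7 comparisons. For Foxa2 the excess was 0.80, with an exact permutation p of 0.3. The design cannot bring any of these p-values below 0.1, and they make no allowance for the choice of reference. The share of all genes that separate from Hnf4a in this way was not computed. The 6 of 7 therefore have no background to be judged against.

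Among 11 other endoderm transcription factors, 10 were tested, none was called and 1 was higher at an unadjusted limma p under 0.05. Their median log2 change was 0.23. Otx2, a visceral endoderm and epiblast factor, differed by 0.45, Eomes by 0.31, Hhex, a factor of anterior visceral endoderm, by 0.24 and Rxra, a nuclear receptor partner, by 0.22. None of the 4 passed the test.

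Upstream, 11 genes of the FGF input had a median log2 change of 0.18, with none called and 2 higher at an unadjusted limma p under 0.05. Nanog, the epiblast factor that opposes Gata6, differed by 0.57 with a limma adjusted p of 0.357, in the same direction as Gata6. Fgfr2, a receptor used by primitive endoderm, differed by 0.70, Ptpn11, the phosphatase Shp2 downstream of it, by 0.60 and Etv5, a transcriptional target of FGF signalling, by -0.31. Fgfr2 had 8218, 7967 and 17123 scaled reads without tamoxifen and 16808, 6493 and 8326 with it. On log2 scaled reads its change turned to -0.10, and the median of the 11 genes turned to -0.09. Nanog differed by 0.36 there, and at an unadjusted limma p under 0.05 none of the list was higher and 1 was lower. The 5 other PDGF ligands and receptors had a median of 0.20, with none called and none at an unadjusted limma p under 0.05. Pdgfa, the main ligand of Pdgfra, differed by 0.40, Pdgfc by 0.22, Pdgfrb by 0.20 and Pdgfb by -0.89. Pdgfc turned to -0.10 without untreated replicate 3, as did the median of the 5, and Pdgfrb to -0.09 without tamoxifen replicate 1.

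Of the 10 endocytic partners of Dab2, none was called with limma, 4 were higher at an unadjusted p under 0.05 and the median log2 change was 0.33. Myo6, the myosin that binds Dab2, differed by 1.38, Cubn, the cubilin receptor, by 1.35, Lrpap1, a chaperone of megalin, by 0.87 and Amn, the partner of cubilin, by 0.44. Cubn stood at 318.7, 296.3 and 108.9 scaled reads without tamoxifen and at 515.2, 483.2 and 579.7 with it. Like Dab2, it was lowest in untreated replicate 3 and without overlap between the groups, and without that library its change was 0.82.

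The 15 basement membrane and parietal endoderm genes, which are targets or products of this lineage but are also made by embryonic stem cells, had a median log2 change of 0.94. None was called with limma, 11 were higher at an unadjusted p under 0.05 (5.34% over all genes) and 13 did not overlap between groups (7.92%). Col4a2 differed by 1.27 (limma adjusted p 0.0861), Col4a1 by 1.27 (0.0936), Lamb1 by 0.95 (0.0861) and Sparc by 0.75 (0.104), or 0.49 on log2 scaled reads. Col4a1 and Col4a2 encode the collagen IV chains, Lamb1 a laminin chain and Sparc a collagen-binding matrix protein. This list was chosen with these values known, and its direction is not independent evidence.

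Of the 15 visceral endoderm products 13 were tested and 10 had a change above 0, or 8 on log2 scaled reads. None was called with limma, none was higher and 1 (Apoa2) was lower at an unadjusted p under 0.05. Their median log2 change was 0.64 for the 13 tested and 0.15 for the 5 that averaged 10 or more reads. Apob, the lipoprotein scaffold and a target of Hnf4a, had 31, 28 and 0 untreated reads and 38, 35 and 35 tamoxifen reads. Its log2 change was 2.80, and 0.43 without untreated replicate 3. Apoe differed by 0.80 on values but by -0.23 on log2 scaled reads, with 1023, 1641 and 1441 scaled reads without tamoxifen and 1329, 944 and 1201 with it. Soat2, which esterifies cholesterol, differed by 0.15 (-0.26 without untreated replicate 1) and Apoa2 by -0.28. Afp and Ttr, defining products of this tissue chosen after their values were seen, had at most 4 reads in any library.

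**Figure D4:**
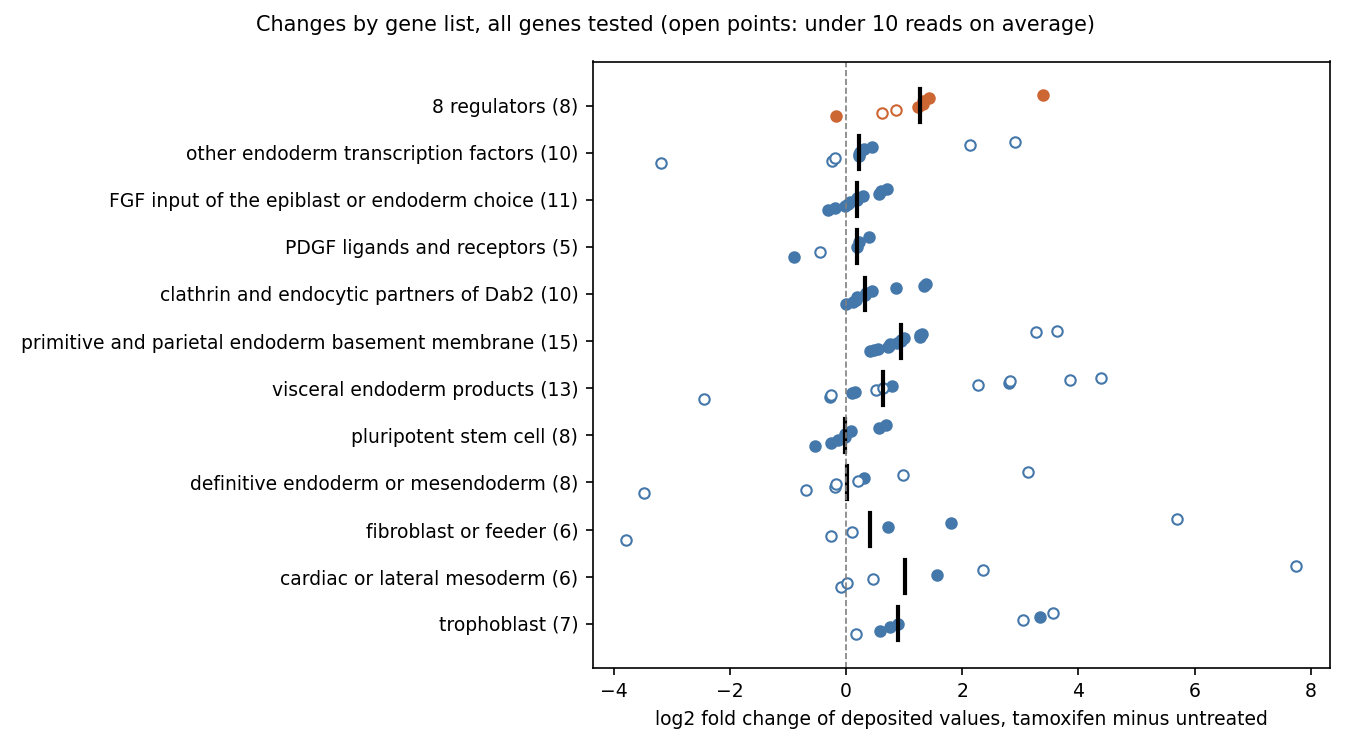
Log2 change of deposited values (x axis, tamoxifen minus untreated) of every gene tested in each list, with the number tested in brackets, open points for genes under 10 reads on average, black bars at the list median and a dashed line at the median of all genes. The list medians are 1.28 for the 8 regulators (orange), 0.94 for the basement membrane genes and -0.02 for pluripotency markers. They are 1.01 for cardiac or lateral mesoderm markers and 0.89 for trophoblast markers.

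Several of the 8 genes are used by other tissues, and markers of those were measured in the same libraries. The 8 definitive endoderm or mesendoderm markers, a tissue that also uses Sox17 and Foxa2, summed to 17.5 to 23.0 scaled reads in untreated and 22.5 to 36.2 in tamoxifen libraries. All 8 were tested and none had an unadjusted limma p under 0.05. Eomes differed by 0.31. T, the mesodermal factor brachyury, had 0, 2 and 2 untreated reads and 6, 7 and 6 tamoxifen reads, and Cxcr4 had 4, 6 and 2 against 8, 2 and 19. Gsc and Mesp1 had at most 2 reads in any library, Mixl1 and Cer1 at most 3, and Lhx1 at most 4. All of these except Eomes, and the other cell type markers named here that averaged under 10 reads, were chosen after their values were seen. Fibroblast or feeder markers, to set beside Pdgfra, summed to 25.1 to 47.5 scaled reads in untreated and 26.0 to 57.4 in tamoxifen libraries, so their ranges overlapped. Of these 10 markers 6 were tested and 1 was higher at an unadjusted limma p under 0.05. That 1 was Postn, with 0, 0 and 0 untreated reads and 1, 2 and 2 tamoxifen reads, while Lum had 0 reads in all libraries and Prrx1 at most 2. Col1a1 differed by 1.81, with overlapping groups (limma adjusted p 0.66), and Col1a2 by 0.72, the latter by 0.02 without untreated replicate 3. Of the 6 tested 4 had a change above 0. In the other direction Col3a1 differed by -3.78, on at most 5 reads in any library, and Thy1 by -0.26.

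Cardiac or lateral mesoderm markers, to set beside Gata4, Gata6 and Pdgfra, summed to 14.2 to 17.4 scaled reads in untreated and 38.4 to 45.2 in tamoxifen libraries. These sums did not overlap. Of these 8 markers 6 were tested, 5 had a change above 0 and 2 were higher at an unadjusted limma p under 0.05. Their median log2 change was 1.01, or 0.46 on log2 scaled reads, but only 1 averaged 10 or more reads. Tbx20 differed by 1.57, and Hand1, chosen after its values were seen and also a trophoblast and extraembryonic mesoderm gene, had 0, 1 and 0 untreated reads and 6, 8 and 10 tamoxifen reads. Tnnt2, the cardiac troponin, had no read in 5 libraries and 2 in tamoxifen replicate 3. Trophoblast markers summed to 208.0 to 397.9 scaled reads in untreated and 427.0 to 568.3 in tamoxifen libraries, also without overlap. All 7 tested had a change above 0, and 2 were higher at an unadjusted limma p under 0.05. Their median log2 change was 0.89, or 0.63 on log2 scaled reads. Krt7 differed by 3.34 (1.26 without untreated replicate 3, where it had 1 read), Krt18 by 0.89, Krt8 by 0.75 and Tfap2c by 0.59, while Elf5 had 1 read in all. The part of these other cell types in the values of the 8 regulators was not tested.

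Over the 6 libraries, the genes most like the mean standardized profile of the 6 regulators with at least 10 reads on average, out of 11837 compared, were Gdpd5 (Pearson r 0.994), Rbm47 (0.992), Lrr1 (0.991), Adamts7 (0.99) and Sh3bgrl2 (0.988). These correlations are a description over 6 libraries that share the difference between groups. The log2 changes were 1.71 for Gdpd5, 1.39 for Rbm47, 0.86 for Lrr1, 4.07 for Adamts7 and 1.57 for Sh3bgrl2, and none of the 5 genes was called. Adamts7 stood at a value of 0.885 in untreated replicate 3, and without that library its change was 3.06. Within the regulators, the log2 values of Hnf4a had Pearson r below 0 with the best counted ones, -0.263 with Gata4, -0.435 with Gata6, -0.294 with Pdgfra and -0.051 with Dab2, but 0.333 with Sox17.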

How the data were processed

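Total RNA was depleted of ribosomal RNA and sequenced as directional libraries, per the labels' protocols. The submitters' processing notes name TopHat2, bedtools, DESeq2 and the build mm9, without versions or roles; the annotation, strand setting and counting rule are not given in the sources used here. The deposited signal values are normalized read counts per gene by the authors, but are not reads divided by 1 factor per library. All 100305 non-zero values could be written with whole numbers k and m as 9.73 × k × (m + 0.1) / (k + 0.1), with a largest relative misfit of 5.11e-15, and k was taken as the recovered reads. One solution existed for 98.8% of values. A gene's value can therefore differ from its reads in proportion.

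Differences were tested with limma 3.58.1 (trend; R 4.3.3) on log2(value + 1) for 17427 genes averaging 10 or more, with Benjamini-Hochberg adjustment and calls under 0.05. The same fit was run on reads over median-ratio size factors, added after seeing the data. Fold changes are on the log2(value + 1) scale. Permutation tests used Python 3.11.15 and scipy 1.17.1. The solver and the limma fit were tested on simulated data. Exon lengths and coordinates come from GENCODE on GRCm38. From each list the up to 4 genes of lowest p with at least 10 reads on average were named, and the 5 genes most like the regulators' profile. Further genes, named for low counts or direction, were picked with their values in view. The 8 genes and all lists were chosen with earlier results of these data known.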

Additional observations from a re-analysis of the deposited data

How the results depend on the processing

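No regulator was called in any of the 15 other fits, all of which held the 8 genes except the fit on genes with at least 10 reads (6 genes, without Sox7 and Foxa2). Their adjusted limma p ran from 0.0776 to 0.982. Their median log2 change stayed between 0.96 (without untreated replicate 3) and 1.38 (reads over the library total, RPM), and between 0.96 and 1.32 when a library was left out. Over all genes 34 were called. The count was 52 with log2(value + 10), 52 without a filter on low values, 62 without the expression trend, 15 among genes with at least 10 reads, 9 on RPM and 4 on reads over size factors. Leaving out a library gave 66 to 103. Hnf4a changed sign on RPM (0.21, below the shift of the median gene of 0.25), and leaving out a library put it between -0.36 and 0.036. With the replicate number as a block limma called 0 genes (1393 at an unadjusted p under 0.05, against 1627 without it), and the lowest adjusted p of a regulator was 0.48. No pairing by replicate number showed in the values. Deviations of same-numbered libraries correlated at -0.007, -0.049 and 0.005 over 11843 genes, and no library correlated best with its own number. Deviations within groups of 3 libraries cannot tell whether same-numbered libraries were handled together. Depth limits Sox7, Sox17, Foxa2 and Hnf4a, whose untreated values rest on 1 to 20 reads each. In untreated replicate 3 Gata4, Gata6, Pdgfra and Dab2 also rest on few reads, 20, 14, 18 and 15.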
